A study of Homo sapiens with 6 samples.

Results

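Aminoacyl-tRNA synthetases are the enzymes that join each amino acid to its transfer RNA, and RNA-seq values of 36 synthetase genes were compared between A549-TIPARP cells and A549-GFP cells. The genes were taken by their symbols from a table of 53826 entries per library. They were 20 genes for enzymes of the cytosol and 16 genes, with symbols ending in 2, for enzymes of mitochondria. Symbols are the older ones of the deposited tables, such as MARS for the gene now called MARS1. A549 cells are an established line from a human lung adenocarcinoma. A549-TIPARP cells carried a stably expressed retroviral TIPARP transgene and A549-GFP cells carried GFP in the same pMXs vector, and both lines were grown in the same serum-containing medium. There were 3 libraries per line, numbered as experiments in the labels. The sources used here do not say whether a line is 1 clone or a pool, nor whether the 3 libraries of a line came from separate transductions, so p-values measure only the spread between these libraries, which may be technical. TIPARP is an enzyme that adds single ADP-ribose units to proteins and is induced by the aryl hydrocarbon receptor. Values listed for a line are in the order of replicates 1, 2 and 3.

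Human cells keep separate sets of synthetases for protein synthesis in the cytosol and for the few proteins made inside mitochondria, and nearly all of them are encoded in the nucleus by different genes. GARS and KARS are exceptions, since each of these genes encodes both the cytosolic and the mitochondrial enzyme. Several cytosolic enzymes, MARS, IARS, LARS, EPRS, QARS, RARS, KARS and DARS, sit with the scaffold proteins AIMP1, AIMP2 and EEF1E1 in a multi-synthetase complex. Uncharged tRNA activates the kinase GCN2 (EIF2AK4), which leads to translation of the transcription factor ATF4, and many genes for cytosolic synthetases are known targets of ATF4. ATF4 binds, with C/EBP partners, a C/EBP-ATF response element (CARE).

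The core of this element, TGATGNAA or TTNCATCA on the other strand, was searched in promoter windows from 250 bases before to 50 bases after each gene start (RefSeq, GRCh38.p14). The table held windows for 30 of the 36 genes, and none for AARS2, DARS, LARS, VARS, VARS2 and YARS. The core was found for 7 of 16 cytosolic synthetase genes and for 1 of 14 mitochondrial ones. For comparison, it was found in 3.62% of all 35116 windows and for 2.69% of the 10344 analysed genes with a window. Of the ATF4 axis genes described further on, 4 of 18 held it. The 30 bases around each match are shown because MARS, CARS, GARS and IARS, which differed strongly among the libraries, are in this group. They are written 5′ to 3′ on the strand of the gene, with the matched core in capitals.
MARS, chr12:57488053-57488082, plus strand: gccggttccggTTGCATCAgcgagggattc
CARS, chr11:3057407-3057436, minus strand: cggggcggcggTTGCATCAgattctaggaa
IARS, chr9:92293692-92293721, minus strand: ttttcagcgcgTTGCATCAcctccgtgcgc
TARS, chr5:33440956-33440985, plus strand: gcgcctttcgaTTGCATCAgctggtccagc
AARS, chr16:70289675-70289704, minus strand: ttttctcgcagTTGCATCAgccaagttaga
NARS, chr18:57621804-57621833, minus strand: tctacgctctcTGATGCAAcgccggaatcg
GARS, chr7:30594834-30594863, plus strand: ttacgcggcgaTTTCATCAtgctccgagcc
YARS2, chr12:32756076-32756105, minus strand: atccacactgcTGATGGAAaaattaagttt

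In MARS, CARS, IARS, TARS and NARS the match began between base -13 and base 15 from the annotated start of the window. It began at base -33 in GARS, at base -187 in AARS and at base -197 in YARS2. The same 8 letters, TTGCATCA or its other strand TGATGCAA, stood in 6 of the 7 cytosolic genes, and TTTCATCA in GARS. CARS, GARS and TARS have more than 1 window and held the core in 1 of them. For GARS and TARS the start of that window lies inside the gene, past the outermost annotated starts at 30594735 and 33440696. A match is a sequence description, and binding of ATF4 was not measured.

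The tables give log2 TPM, a share of a library's transcripts corrected for transcript length, in which every TPM below 1 was set to 1. They hold no read counts, so depth and counting error are unknown. Per library, 40106 to 40891 of the 53826 entries were at this floor. TIPARP, the check of the labels, had 3.68 to 11.4 TPM in A549-GFP and 90.5 to 131 TPM in A549-TIPARP libraries. The 6 markers of A549 epithelium were all found and summed to 10774 TPM in A549-GFP replicate 2 and to 18544 to 23392 TPM in the other libraries. In that library KRT8, KRT18 and KRT19 were the lowest of the 6 libraries, KRT7 and CDH1 the highest, and EPCAM lay within the others, and their part in the results was not tested. KRT19 was also higher in every A549-TIPARP library, at 10.9 to 19.2 TPM against 2.54 to 5.36 TPM. All 4 endothelial markers, 3 of 4 leukocyte markers (PTPRC, CD3E and CD79A) and 3 of 5 fibroblast markers (COL3A1, PDGFRB and DCN) were at the floor in all libraries. The leukocyte marker CD14 reached 4.98 TPM in A549-GFP and 2.23 to 5.63 TPM in A549-TIPARP libraries, and the fibroblast marker COL1A1 was higher in every A549-TIPARP library, at 1.64 to 2.56 TPM against at most 1.44 TPM. The fibroblast marker LUM was above the floor in A549-GFP replicate 2 alone, at 1.09 TPM. A549-GFP replicate 2 stood apart. Its genes deviated from the mean of the A549-GFP line by a root mean square of 0.621 on the log2 scale against 0.185 to 0.400 for the other 5 libraries around their own lines, and its median gene lay 0.27 above the mean library. The comparisons are therefore also given without it.

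All 36 synthetase genes were above the floor in all 6 libraries and passed the study's limit of a TPM above 2 in at least 1 library. Cytosolic synthetase transcripts were the more abundant set, with a median of 96.0 TPM (geometric means over 6 libraries, 43.7 to 243) against 23.1 TPM for the mitochondrial genes (5.92 to 131). AARS, for alanine, GARS, for glycine, and KARS, for lysine, had the highest cytosolic levels at 243, 205 and 203 TPM. The range of KARS, 162 to 235 TPM, overlapped those of AARS (207 to 360 TPM) and GARS (165 to 365 TPM), so these ranges do not order the 3 genes. Within the A549-TIPARP libraries AARS, at 213 to 253 TPM, lay above GARS, at 165 to 191 TPM. Within the A549-GFP libraries these 2 genes overlapped. LARS, for leucine, was lowest at 43.7 TPM. Of the mitochondrial genes, IARS2, for isoleucine, reached 109 to 161 TPM, above SARS2 (43.1 to 70.7 TPM) and CARS2 (49.2 to 61.7 TPM) without overlap. PARS2, for proline, AARS2 and MARS2 were lowest at 5.92, 6.81 and 7.62 TPM, with ranges that also overlapped. The summed TPM of the 20 cytosolic genes was 2363, 3066 and 1964 in A549-GFP and 1952, 2177 and 1798 in A549-TIPARP libraries. That of the 16 mitochondrial genes was 531, 469.0 and 469.6 in A549-GFP and 473, 502 and 405 in A549-TIPARP libraries. A549-GFP replicate 2 had the highest cytosolic sum and A549-TIPARP replicate 3 the lowest sum of both sets.

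**Figure D1:**
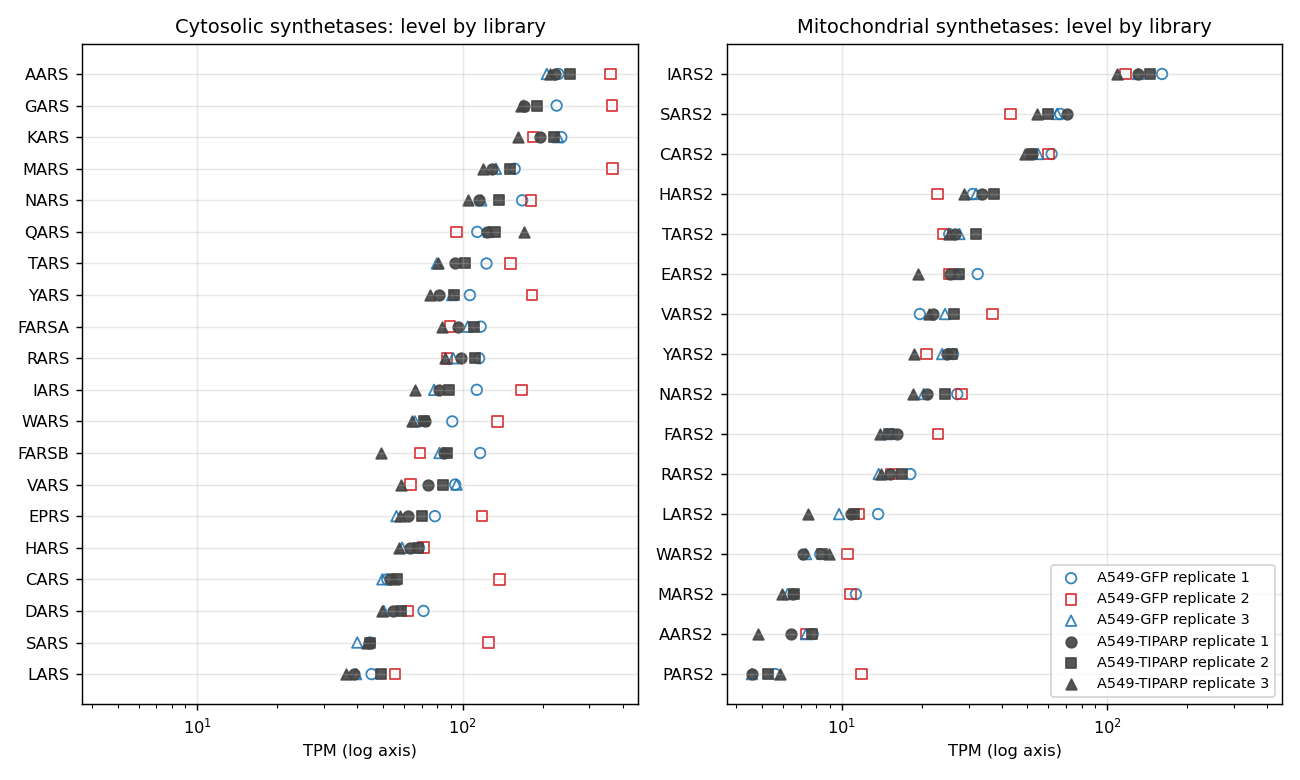
TPM of each synthetase gene (log axis) in each of the 6 libraries, with genes ordered by their geometric mean and 1 symbol per library. The geometric means run from 43.7 to 243 TPM for cytosolic and from 5.92 to 131 TPM for mitochondrial genes. The red squares, A549-GFP replicate 2, lie to the right of the other libraries for 13 of 20 cytosolic genes, and this library was the highest for 52.0% of all genes.

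No synthetase gene passed the test between the lines. The lines were compared by limma on log2(TPM + 1) over 13181 genes with Benjamini-Hochberg adjustment, and fold changes are A549-TIPARP minus A549-GFP on this scale. None of the 36 genes had an adjusted p under 0.05, against 0.0152% of all genes, and none had an unadjusted p under 0.05, against 3.85% of all genes. The adjusted p-values ran from 0.994 to 0.998. The mean was lower in A549-TIPARP cells for 18 of 20 cytosolic and 13 of 16 mitochondrial genes, while 60.4% of all genes had a lower mean. The median log2 fold change was -0.30 for the cytosolic genes, -0.18 for the mitochondrial genes and -0.063 for all genes. No synthetase gene was past 2-fold, against 0.743% of all genes. When libraries were rescaled by median ratios, which moved the median of all genes to -0.00347, the cytosolic median was -0.23 and the mitochondrial median -0.12.

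Single libraries moved these medians. Without A549-GFP replicate 2 the cytosolic median went to -0.14 and the mitochondrial median to -0.11, while that of all genes was 0.042. Without A549-TIPARP replicate 3 the cytosolic and mitochondrial medians were -0.17 and -0.080. They were further from 0 without A549-GFP replicate 3, at -0.44 and -0.23, and without A549-TIPARP replicate 2, at -0.39 and -0.21. With A549-GFP replicate 2 left out, the mean was still lower in A549-TIPARP cells for 16 of 20 cytosolic and 11 of 16 mitochondrial genes, against 42.6% of all genes. None of the 36 then had an unadjusted p under 0.05, against 10.5% of all genes. In bulk RNA, less RNA per cell and fewer cells with a high level cannot be told apart.

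**Figure D2:**
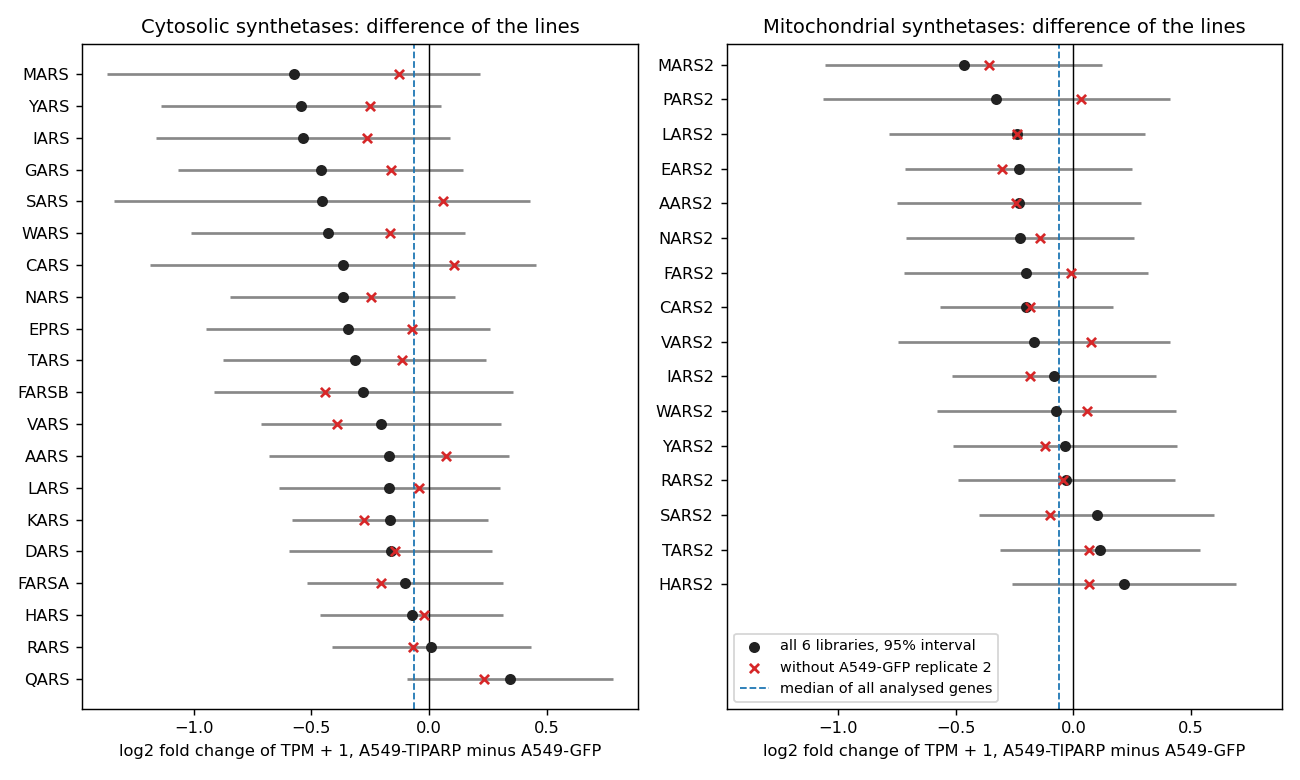
Log2 fold change of TPM + 1, A549-TIPARP minus A549-GFP, for each synthetase gene, with the 95% interval of the limma fit (points and bars), the value without A549-GFP replicate 2 (crosses) and the median of all analysed genes (dashed line, -0.063). Every interval includes 0, and the points reach from -0.57 for MARS to 0.34 for QARS.

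Among the cytosolic enzymes MARS, YARS, IARS, GARS and SARS had the largest differences. MARS, which charges the methionine tRNA that starts proteins in the cytosol, lies on chromosome 12 from 57488068 to 57516652. Its TPM was 157, 367 and 133 in A549-GFP replicates 1, 2 and 3 and 129, 150.2 and 119 in A549-TIPARP replicates 1, 2 and 3. Only replicate 2 of A549-GFP stood far from the others, and the lines overlapped. The mean log2(TPM + 1) was 7.63 ± 0.78 (SD, n = 3) in A549-GFP and 7.06 ± 0.17 (SD, n = 3) in A549-TIPARP cells. The log2 fold change was -0.57 (standard error 0.35, 95% interval -1.37 to 0.22, limma adjusted p = 0.994), and -0.13 without A549-GFP replicate 2. By annotation MARS overlaps ARHGAP9 by 757 bases and DDIT3 by 65 bases. The A549-GFP libraries held 14.4, 89.9 and 12.9 TPM of DDIT3 and the A549-TIPARP libraries 21.6, 15.9 and 14.4 TPM, and the part of these overlaps in the value of MARS was not tested.

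YARS, the tyrosine enzyme (chromosome 1, 32775239 to 32817358), had 106, 182 and 91.1 TPM in A549-GFP and 81.0, 92.7 and 75.1 TPM in A549-TIPARP libraries. Here A549-GFP replicates 1 and 2 were above all A549-TIPARP libraries and replicate 3 was not. The log2 fold change was -0.54 (standard error 0.26, 95% interval -1.14 to 0.050), with an unadjusted p of 0.0680, the lowest of the 36 genes. IARS, the isoleucine enzyme (chromosome 9, 92210207 to 92293697), had 113, 166 and 78.0 TPM in A549-GFP and 81.4, 88.8 and 65.9 TPM in A549-TIPARP libraries. Here A549-GFP replicates 1 and 2 were again the highest, and replicate 3 lay below A549-TIPARP replicates 1 and 2. Its log2 fold change was -0.53 (standard error 0.27, 95% interval -1.16 to 0.091). Without A549-GFP replicate 2 the differences of YARS and IARS were -0.25 and -0.26, and without A549-GFP replicate 3 they were -0.75 and -0.80.

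GARS (chromosome 7, 30594735 to 30634033) had 226, 365 and 169 TPM in A549-GFP and 169.7, 191 and 165 TPM in A549-TIPARP libraries. Its A549-GFP replicate 3 lay among the A549-TIPARP libraries. The log2 fold change was -0.46 (standard error 0.27, 95% interval -1.06 to 0.15). Leaving out A549-GFP replicate 2 gave -0.16, and leaving out replicate 3 of the same line gave -0.71. SARS, for serine (chromosome 1, 109213893 to 109238182), had 44.7, 125 and 40.03 TPM in A549-GFP and 44.2, 44.6 and 43.7 TPM in A549-TIPARP libraries. Apart from A549-GFP replicate 2 its values spanned 40.03 to 44.7 TPM. Its log2 fold change of -0.45 (standard error 0.39) turned to 0.061 without that library and was -0.75 without A549-GFP replicate 3. CARS and AARS also changed sign, from -0.37 to 0.11 and from -0.17 to 0.070.

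QARS, the glutamine enzyme, and RARS, the arginine enzyme, were the cytosolic genes with a higher mean in A549-TIPARP cells. QARS, outside the rule for named genes, had 113, 94.8 and 125 TPM in A549-GFP and 123, 132 and 170.3 TPM in A549-TIPARP libraries. The lines overlapped, since A549-GFP replicate 3 stood above A549-TIPARP replicate 1. Its log2 fold change was 0.34 (standard error 0.19, 95% interval -0.095 to 0.78), 0.23 without A549-GFP replicate 2 and 0.20 without A549-TIPARP replicate 3. RARS was at 0.010 (95% interval -0.41 to 0.43), and at -0.069 without A549-GFP replicate 2. KARS had 235, 184 and 229 TPM in A549-GFP and 196, 220.1 and 162 TPM in A549-TIPARP libraries. Its lines overlapped, with a log2 fold change of -0.17 (95% interval -0.58 to 0.25). It ranged from -0.28 without A549-GFP replicate 2 to -0.047 without A549-TIPARP replicate 3. The remaining cytosolic genes ranged from -0.43 for WARS to -0.074 for HARS, all with overlapping lines. WARS was at -0.17 without A549-GFP replicate 2 and at -0.68 without A549-GFP replicate 3. HARS was at -0.15 without A549-GFP replicate 3 and at -0.011 without A549-TIPARP replicate 3.

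FARSA and FARSB encode the alpha and beta subunits of the cytosolic phenylalanine enzyme. FARSA (chromosome 19, 12922479 to 12933711) had 117, 89.4 and 104 TPM in A549-GFP and 95.7, 109.9 and 83.8 TPM in A549-TIPARP libraries. FARSB (chromosome 2, 222566899 to 222656092) had 116, 69.1 and 81.7 TPM in A549-GFP and 85.0, 86.9 and 49.3 TPM in A549-TIPARP libraries. Neither subunit separated the lines. Their log2 fold changes were -0.10 (standard error 0.18) and -0.28 (standard error 0.28). With each library left out in turn, FARSA ranged from -0.20 (without A549-GFP replicate 2) to -0.0047 (without A549-TIPARP replicate 3) and FARSB from -0.44 to -0.016 without the same libraries. The ratio of FARSA to FARSB was 1.005, 1.29 and 1.28 in A549-GFP replicates 1, 2 and 3 and 1.13, 1.27 and 1.70 in A549-TIPARP replicates 1, 2 and 3. The highest ratio was that of A549-TIPARP replicate 3, in which FARSB had its lowest value.

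Among the mitochondrial enzymes MARS2, for methionine, and PARS2, for proline, had the largest differences. MARS2 (chromosome 2, 197705369 to 197708395) had 11.3, 10.8 and 6.24 TPM in A549-GFP and 6.52, 6.62 and 5.96 TPM in A549-TIPARP libraries. A549-GFP replicates 1 and 2 stood above the other 4 libraries. The log2 fold change was -0.47 (standard error 0.26, 95% interval -1.05 to 0.12, limma adjusted p = 0.994). It was -0.71 without A549-GFP replicate 3 and -0.33 without replicate 1 of that line, the extremes with each library left out. PARS2 (chromosome 1, 54756898 to 54764523) had 5.61, 11.8 and 4.58 TPM in A549-GFP and 4.58, 5.27 and 5.84 TPM in A549-TIPARP libraries. The difference of PARS2, -0.33, was 0.032 without A549-GFP replicate 2, the library that was high, and -0.57 without A549-GFP replicate 3. LARS2 (chromosome 3, 45388576 to 45549407) had 13.7, 11.6 and 9.76 TPM in A549-GFP and 10.8, 11.1 and 7.45 TPM in A549-TIPARP libraries, a difference of -0.24 (standard error 0.24).

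EARS2, for glutamate (chromosome 16, 23520754 to 23557375), had 32.5, 25.5 and 27.3 TPM in A549-GFP and 25.5, 27.7 and 19.3 TPM in A549-TIPARP libraries, a difference of -0.23 (standard error 0.21). AARS2 (chromosome 6, 44298731 to 44313347) had 7.77, 7.32 and 7.33 TPM in A549-GFP and 6.41, 7.73 and 4.82 TPM in A549-TIPARP libraries, also a difference of -0.23 (standard error 0.23). In LARS2, EARS2 and AARS2 the lowest value was that of A549-TIPARP replicate 3, and the lines overlapped. Without that library their differences were -0.073, -0.085 and -0.074, and with each other library left out they reached down to -0.35, -0.34 and -0.37. CARS2, the cysteine enzyme (chromosome 13, 110641410 to 110713522), was the only gene of the 36 whose lines did not overlap. It had 61.7, 60.0 and 54.9 TPM in A549-GFP and 52.01, 51.97 and 49.2 TPM in A549-TIPARP libraries, a log2 fold change of -0.20 (standard error 0.16, limma adjusted p = 0.994), and -0.19 without A549-GFP replicate 2. All A549-TIPARP libraries lay below all A549-GFP libraries for 3.54% of all genes and above them for 5.36%, and for 1 and 0 of the 36 synthetase genes. SARS2, TARS2 and HARS2 were the mitochondrial genes with a higher mean in A549-TIPARP cells, with log2 fold changes of 0.098, 0.11 and 0.22, and of -0.100, 0.068 and 0.067 without A549-GFP replicate 2. TARS2 was at 0.019 without A549-TIPARP replicate 2.

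HARS and HARS2, the cytosolic and mitochondrial histidine enzymes, are neighbours transcribed away from each other on chromosome 5. The 84 bases between their annotated starts, chr5:140691371-140691454 in GRCh38.p14, are shown on the plus strand, on which HARS2 is read, because both genes share them.
HARS to HARS2: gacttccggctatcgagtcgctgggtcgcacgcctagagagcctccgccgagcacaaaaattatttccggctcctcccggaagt

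Both genes are named after their values were seen. HARS was the steadiest of the 36 genes, with 57.3 to 71.1 TPM and a coefficient of variation of 8.57% over the 6 libraries. HARS2 had 31.1, 22.9 and 32.0 TPM in A549-GFP and 33.7, 37.5 and 28.7 TPM in A549-TIPARP libraries. In A549-GFP replicate 2 HARS had its highest and HARS2 its lowest value, and the ratio of HARS to HARS2 was 3.10 there and 1.81 to 2.20 in the other libraries. Both proteins are close in sequence, and how reads matching more than 1 gene were counted is not stated, so their split is uncertain.

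The cytosolic gene was the higher one in all 6 libraries for 10 of the 13 amino acids with 1 named gene for each compartment. The median ratio of cytosolic to mitochondrial TPM was 4.14. It was highest for alanine, with a ratio of AARS to AARS2 of 35.7 (28.3 to 49.2), and for methionine, with a ratio of MARS to MARS2 of 21.2 (13.9 to 34.03). The order was the other way for isoleucine, where IARS stood at 0.60 to 0.70 of IARS2 in 5 libraries and at 1.42 in A549-GFP replicate 2. SARS stood at 0.62 to 0.80 of SARS2 in 5 libraries and at 2.91 in the same library. CARS and CARS2 were near 1, from 0.84 to 1.12, with 2.29 in that library. The arginine and asparagine pairs had the smallest spread, with RARS to RARS2 at 5.67 to 6.69 and NARS to NARS2 at 5.47 to 6.39.

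**Figure D3:**
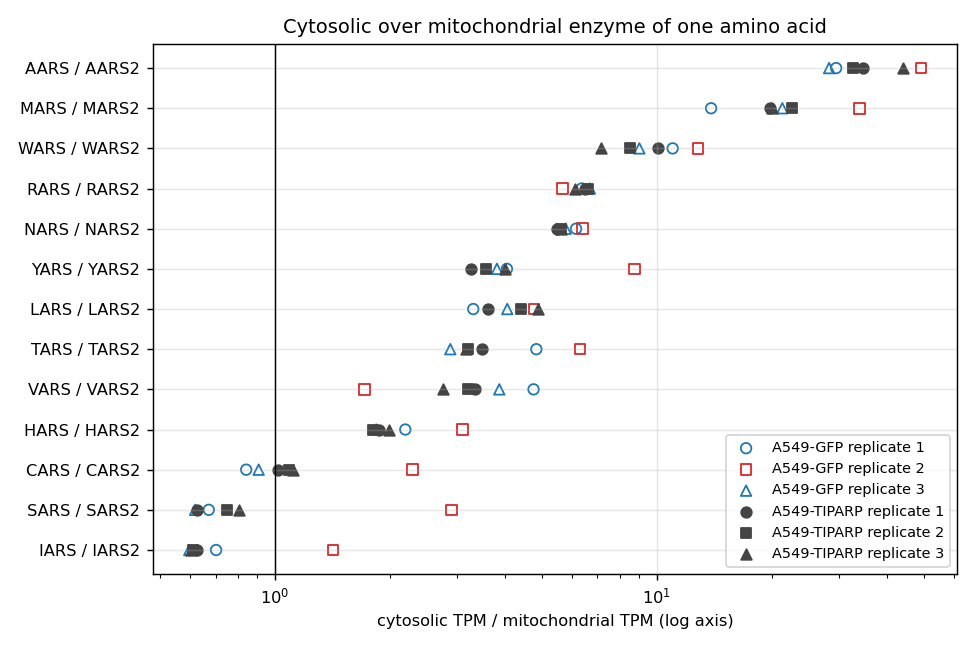
Ratio of the TPM of the cytosolic to the mitochondrial synthetase of the same amino acid (log axis) in each library, for 13 amino acids. For isoleucine, serine and cysteine A549-GFP replicate 2 (red square) lies at 1.42, 2.91 and 2.29, above 1, where the other 5 libraries lie between 0.60 and 1.12.

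A549-GFP replicate 2 was set against the geometric mean of replicates 1 and 3, as a description of that library. SARS was 2.96-fold, CARS 2.71-fold and MARS 2.54-fold higher in it, followed by GARS (1.87-fold), YARS (1.85-fold), EPRS (1.78-fold), IARS (1.77-fold), WARS (1.74-fold), AARS (1.65-fold) and TARS (1.53-fold). At the other end VARS was at 0.68, FARSB at 0.71, KARS at 0.79, QARS at 0.80, FARSA at 0.81 and RARS at 0.85 of the other A549-GFP libraries. Thus 10 of 20 cytosolic genes were over 1.5-fold higher in it, and 3 of 16 mitochondrial genes (PARS2, VARS2 and FARS2), against 38.0% of all genes. It was the highest of all 6 libraries for 13 cytosolic and 5 mitochondrial genes, against 52.0% of all genes. The medians were 1.41-fold for cytosolic, 0.99-fold for mitochondrial and 1.30-fold for all analysed genes.

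**Figure D4:**
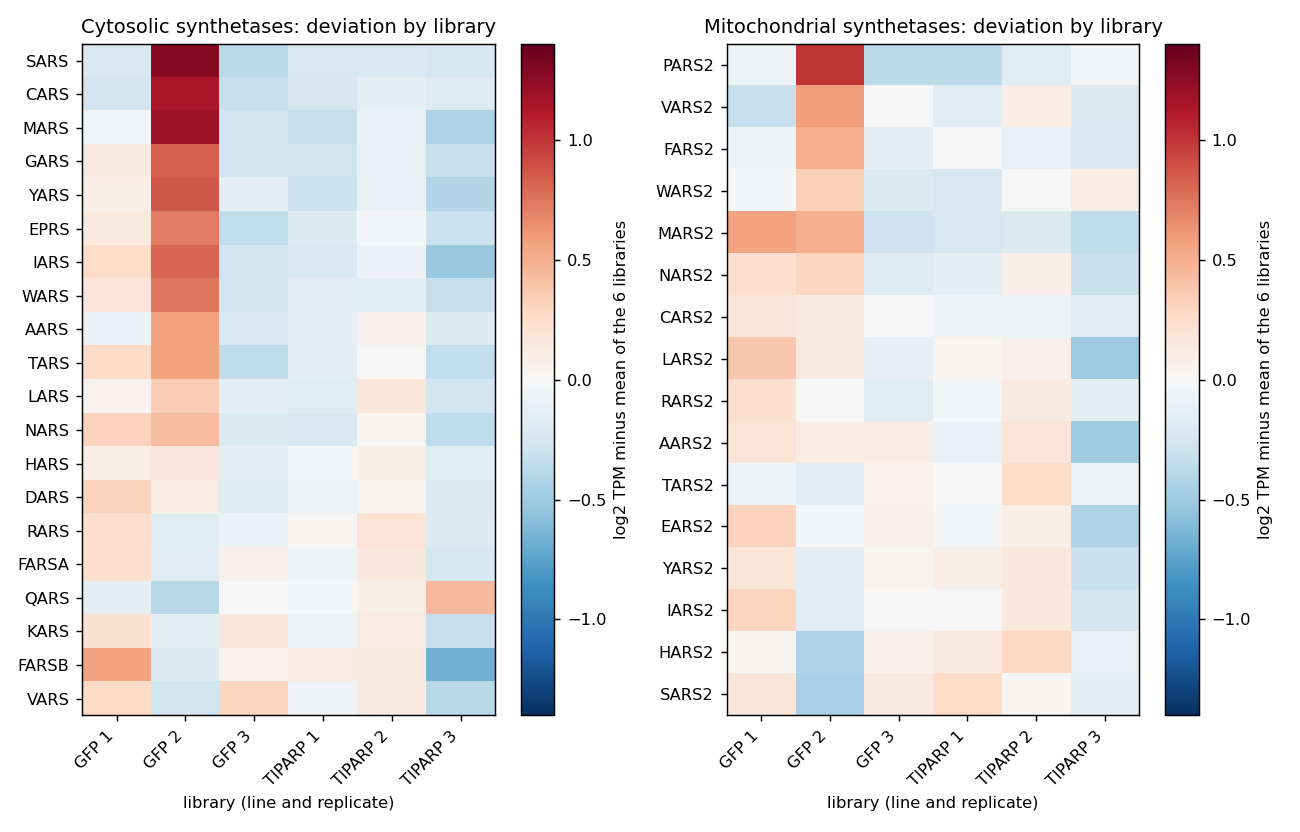
Log2 TPM of each synthetase gene in each library minus its mean over the 6 libraries, with genes ordered by the excess of A549-GFP replicate 2. The deep red cells are SARS, CARS and MARS in A549-GFP replicate 2, 2.54- to 2.96-fold above the other A549-GFP libraries, while VARS, FARSB and KARS at the bottom of the cytosolic panel are lower in it.

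The 7 cytosolic genes with the CARE core shown above were from 1.29-fold (NARS) to 2.71-fold (CARS) higher in A549-GFP replicate 2, with a median of 1.77-fold. The 9 cytosolic genes with a window and no match ranged from 0.71 (FARSB) to 2.96-fold (SARS), with a median of 0.85. SARS, EPRS and WARS had no match in these windows and were among the higher genes. YARS2, the mitochondrial gene with a match, was at 0.83. The median log2 fold change between the lines was -0.37 for the 7 genes and -0.17 for the 9 genes, and -0.13 and -0.072 without A549-GFP replicate 2. These groups differ in a library that stands apart for many genes, and no test was made of them.

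**Figure D5:**
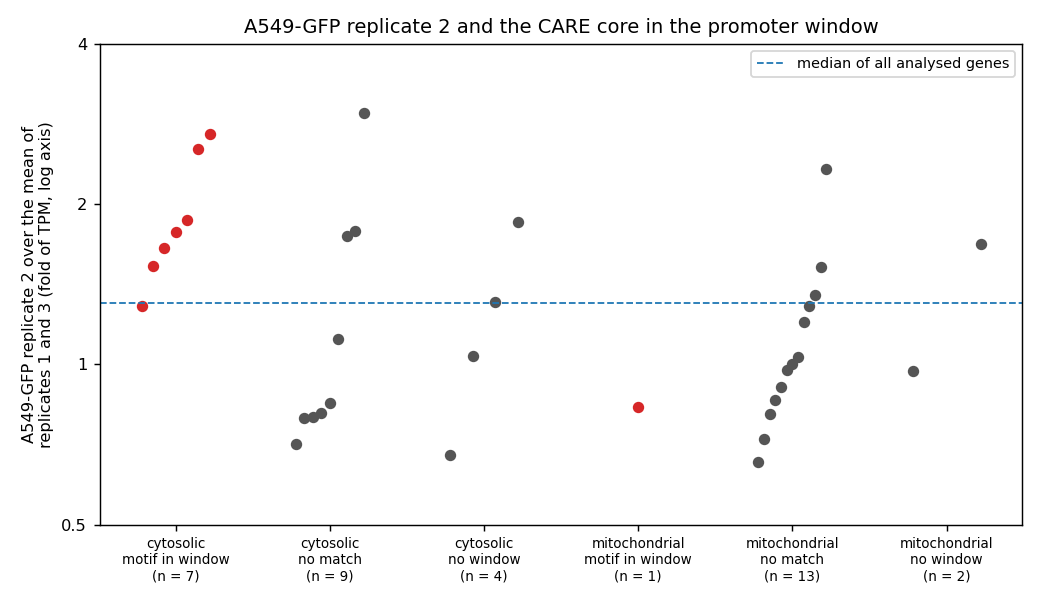
Level of each synthetase gene in A549-GFP replicate 2 over the geometric mean of A549-GFP replicates 1 and 3 (log axis), by compartment and by whether the promoter window held the CARE core (red points). The 7 cytosolic genes with the core lie between 1.29 and 2.71, and the dashed line marks the median of all analysed genes, 1.30.

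Likeness of patterns was described over the 6 libraries on the log2(TPM + 1) scale. Most like MARS were YARS, GARS and SARS, with Pearson correlations of 0.98, 0.98 and 0.97. These correlations share A549-GFP replicate 2, and without it they were 0.94, 0.91 and 0.32, so that the likeness of SARS rests on that library. Most like MARS2 were NARS, CARS2 and TARS, with 0.94, 0.93 and 0.91, and 0.91, 0.91 and 0.89 without that library.

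Partners of the synthetases were tested in the same fit. Of 12 genes for scaffolds, amidases and other helpers of tRNA charging, 11 had a mean below that of A549-GFP in A549-TIPARP cells, with a median log2 fold change of -0.28, and none of the 12 had an unadjusted p under 0.05, against 3.85% of all genes. Of all genes 60.4% had a lower mean. The scaffold genes EEF1E1, AIMP1 and AIMP2 were at -0.41, -0.38 and -0.35 (standard errors 0.21, 0.20 and 0.20), and at -0.42, -0.22 and -0.28 without A549-GFP replicate 2. AIMP1 had 53.1, 65.7 and 41.8 TPM in A549-GFP and 41.3, 41.0 and 38.7 TPM in A549-TIPARP libraries, and its lines did not overlap. EEF1E1 had 92.9, 79.5 and 72.0 TPM in A549-GFP and 66.4, 72.5 and 46.8 TPM in A549-TIPARP libraries, and its lines overlapped at A549-TIPARP replicate 2. PSTK, a kinase for the tRNA of selenocysteine, was at -0.39 and went to -0.11 without A549-GFP replicate 2. MTFMT and AARSD1 were also lower in every A549-TIPARP library and were named after their values were seen, which makes 3 of 12 genes with all A549-TIPARP libraries lower, against 3.54% of all genes. TARSL2, a further threonine synthetase gene, was at 0.16.

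The ATF4 axis, with GCN2, ATF4 and known ATF4 targets, was also high in A549-GFP replicate 2. Of its 20 genes 19 were lower on average in A549-TIPARP cells, with a median log2 fold change of -0.59, and -0.17 without that library, where 13 of 20 were lower. The shares of all genes were 60.4%, and 42.6% without that library. None had an adjusted p under 0.05, and 5 of 20 had an unadjusted p under 0.05, against 3.85% of all genes (DDIT4, CEBPB, SLC3A2, SLC7A5 and MTHFD2, named after their values were seen). Without that library 2 of 20 had an unadjusted p under 0.05, CEBPB and NUPR1, against 10.5% of all genes. All A549-TIPARP libraries were lower for 5 of 20 genes (ATF3, TRIB3, DDIT4, SLC3A2 and CEBPB), against 3.54% of all genes. The list was drawn up with earlier results of these libraries known. CHAC1, an enzyme that degrades glutathione, had 6.57, 64.0 and 5.18 TPM in A549-GFP and 4.93, 6.32 and 6.73 TPM in A549-TIPARP libraries. ATF3 was at -0.94 and TRIB3, a pseudokinase that restrains ATF4, at -0.93, and without A549-GFP replicate 2 they were at -0.26 and -0.33. NUPR1, a stress-induced chromatin protein, had 3.92, 27.6 and 2.86 TPM in A549-GFP and 20.5, 13.8 and 32.3 TPM in A549-TIPARP libraries. Its difference was 1.43 (standard error 0.69), and 2.33 without A549-GFP replicate 2 (limma adjusted p = 0.225).

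ATF4 itself, outside the rule for named genes, had 520.3, 1244 and 475 TPM in A549-GFP and 432, 431 and 537 TPM in A549-TIPARP libraries. A549-GFP replicate 2 was the highest library for 17 of the 20 genes, against 52.0% of all genes, with a median of 2.62-fold over the other A549-GFP libraries. EIF2AK4, the GCN2 kinase, was 1.41-fold higher in that library. Whether these differences and those of the synthetase genes have a shared source was not tested.

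Annotated overlaps touch a few of these values. By RefSeq coordinates 5 of the 36 genes (CARS2, EARS2, FARS2, MARS and YARS) overlap another protein-coding gene, by 65 to 11017 bases. The antisense transcript DARS-AS1 was at 1.22 TPM, the floor and 1.28 TPM in A549-GFP and at 2.22, 2.31 and 2.82 TPM in A549-TIPARP libraries, far below DARS at 49.6 to 71.1 TPM. The libraries were made with a strand-specific kit, and whether strand was used in counting is not stated.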

How the data were processed

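Total RNA of A549-GFP and A549-TIPARP cells (3 libraries per line) was sequenced by the authors as paired-end reads from strand-specific mRNA libraries, aligned to the hg38 transcriptome with Strand NGS at default parameters, and deposited as log2 TPM per gene. Software version, annotation release and handling of multiply matching reads are not given in the sources used here. The deposited log2 values were turned back to TPM. A linear model with a variance trend (limma 3.58.1, R 4.3.3) was fitted to log2(TPM + 1) of all 13181 genes above 2 TPM in at least 1 library, with Benjamini-Hochberg adjustment. The script was tested on simulated data.

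Groups and replicate numbers came from the sample titles. The members and the gene lists were chosen with earlier results of these data known. Values are given for the 5 largest differences per compartment, genes whose lines did not overlap or whose unadjusted p was under 0.05, FARSA, FARSB, GARS and KARS, up to 4 genes of each pathway list, and a few others, such as QARS, HARS, HARS2 and ATF4, chosen after their values were seen. Medians over lists are descriptions. Alternatives were a pseudocount of 0.1, the deposited log2 scale, no filter, a stricter one (above 2 TPM in 3 or more libraries), median-ratio rescaling, no variance trend, the replicate block and each library left out. Promoter windows and coordinates are those of RefSeq on GRCh38.p14, matched by Entrez Gene ID. The build the authors name, hg38, has the same primary coordinates.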

Additional observations from a re-analysis of the deposited data

How the results depend on the processing

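None of the 36 synthetase genes had an adjusted p under 0.05 in the 13 alternatives, where the lowest was 0.508. At an unadjusted p under 0.05 there were 2 of 36 (IARS and YARS) after median-ratio rescaling, against 5.96% of all genes, and the same 2 with the replicate block, against 3.14%. With a library left out there were from 0 to 8, the 8 without A549-GFP replicate 3, against 8.23% of all genes. Same-numbered libraries correlated in their deviations from the mean of their line at 0.41, -0.49 and -0.36. Within a line of 3 libraries these deviations sum to 0, so the most deviant libraries largely set the signs. The values therefore cannot show whether the numbers pair the libraries. Over all genes 508 had an unadjusted p under 0.05, and from 253 (without A549-TIPARP replicate 1) to 1379 (without A549-GFP replicate 2) in the alternatives, with 1 to 3 genes at an adjusted p under 0.05. Of 468 member values under the alternatives 448 kept their direction and side of the threshold and 20 changed sign. RARS2 and YARS2 were at 0.031 and 0.026 after rescaling. With each library left out, log2 fold changes ranged from -0.33 to 0.070 for AARS, -0.62 to 0.11 for CARS, -0.75 to 0.061 for SARS, -0.081 to 0.13 for RARS, -0.19 to 0.043 for IARS2, -0.57 to 0.032 for PARS2, -0.12 to 0.069 for RARS2, -0.10 to 0.21 for SARS2, -0.36 to 0.075 for VARS2, -0.18 to 0.056 for WARS2 and -0.12 to 0.10 for YARS2. The cause of these changes was not tested. TPM carries no depth, so counting error is unknown. The list without a filter left out entries at the floor in all libraries, which have no spread to fit.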
